A study of Mus musculus with 10 samples.

Results

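Cell cycle and DNA replication genes were followed in cDC1s of the spleen, dendritic cells marked by Xcr1 and Clec9a, across 4 mouse genotypes. A list of 42 genes was used, 18 of them acting in or before S phase and 24 in mitosis, and each gene was read from the probe set that named it alone, or from the brightest such set where there were several. All 18 S phase genes and 23 of the 24 mitotic genes were measured, 41 genes out of 19938 on the array. Ccnb1 had no probe set annotated to it alone, so its expression was not analysed here. Total RNA of sorted cDC1s was hybridised to 10 Affymetrix arrays: 3 of WT, 3 of Zeb2 KO, 2 of Nfil3 Zeb2 DKO and 2 of Zeb2 Id2 DKO mice. All mutant groups thus carry the loss of Zeb2, a zinc finger repressor, and the double mutants add the loss of Nfil3, a basic leucine zipper repressor, or of Id2, an inhibitor of E proteins. The alleles, any Cre driver, the ages of the mice and the sort gate are not given in the sources used here. The labels do not say that replicates came from separate animals, so the p-values cover only the array-to-array spread seen here.

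A dividing cell copies its DNA in S phase and separates the copies in mitosis, and the genes for each step are transcribed in turn. E2F factors switch on the replication genes at the entry to S phase, and the DREAM and MuvB complexes with B-Myb and Foxm1 control the later mitotic set. Conventional dendritic cells arise from dividing bone marrow precursors and keep dividing at a low rate in the spleen, so a sorted population can hold cycling and resting cells. In RNA from such a population, a smaller share of dividing cells and less RNA per dividing cell cannot be told apart.

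Promoter motifs were not spread alike over S phase and mitotic genes, and 8 promoters are shown as examples that hold them. In windows of 300 bases (250 before to 50 after the start, RefSeq, GRCm38.p6), 3 motifs were searched on both strands: TTTGAA, the cell cycle homology region, CCAAT, the NF-Y box, and TTTNNCGC, the core of an E2F site. A window was held for 15 of 18 S phase and 19 of 24 mitotic genes, Ccnb1 among them. TTTGAA lay in 12 of the 19 mitotic windows (63.2%) and in 2 of the 15 S phase windows (13.3%), against 18.1% of all 27025 promoters. TTTNNCGC showed the opposite, with 7 of 15 S phase windows (46.7%) and 1 of 19 mitotic windows (5.26%), against 5.27% of all. CCAAT was held by 60% of the S phase and 68.4% of the mitotic windows, and by 37.9% of all. TTTGAA and CCAAT stood together in 10 mitotic windows (52.6%), against 7.12% of all promoters. The S phase windows with TTTGAA were those of Mcm2 and Cdc45, and the mitotic window with TTTNNCGC was that of Cdk1. A match is a description of the letters and not a measured site. In cell cycle genes outside the list, TTTGAA was in 39 of 57 windows of mitotic genes (68.4%) and 7 of 41 of S phase genes (17.1%). TTTNNCGC was there in 16 of 41 S phase windows (39%) and in 11 of 57 mitotic windows (19.3%), so outside the list the mitotic share was above that of all promoters.

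The 200 bases before the start of 4 mitotic genes follow, 5′ to 3′ on the gene's strand, with the bases of the 3 motifs on either strand in capitals. Cdk1 encodes the mitotic kinase, Cdc20 an activator of the anaphase-promoting complex, Mki67 the Ki-67 protein and Top2a topoisomerase II alpha.
Cdk1, chr10:69352913-69353112, minus strand: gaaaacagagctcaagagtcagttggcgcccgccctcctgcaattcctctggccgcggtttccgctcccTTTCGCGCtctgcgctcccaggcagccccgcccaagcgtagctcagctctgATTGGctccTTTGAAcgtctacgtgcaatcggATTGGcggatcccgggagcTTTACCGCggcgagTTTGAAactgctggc
Cdc20, chr4:118437344-118437543, minus strand: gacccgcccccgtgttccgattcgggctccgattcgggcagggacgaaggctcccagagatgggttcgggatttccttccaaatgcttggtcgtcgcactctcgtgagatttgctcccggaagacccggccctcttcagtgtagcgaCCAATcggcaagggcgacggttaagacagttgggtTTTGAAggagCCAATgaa
Mki67, chr7:135716380-135716579, minus strand: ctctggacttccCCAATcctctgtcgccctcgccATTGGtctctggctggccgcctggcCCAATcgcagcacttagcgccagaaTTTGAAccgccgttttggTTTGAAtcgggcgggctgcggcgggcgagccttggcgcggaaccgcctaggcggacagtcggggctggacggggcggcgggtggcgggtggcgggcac
Top2a, chr11:99024190-99024389, minus strand: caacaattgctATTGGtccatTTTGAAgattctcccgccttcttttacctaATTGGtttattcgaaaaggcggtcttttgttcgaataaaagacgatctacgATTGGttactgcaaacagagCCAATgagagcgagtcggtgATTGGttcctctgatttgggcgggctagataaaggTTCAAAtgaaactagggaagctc

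The same stretch is shown for 4 S phase genes with TTTNNCGC. Mcm5, Mcm6 and Mcm7 encode subunits of the replicative helicase, and Cdc6 a factor that loads it. In Mcm5 and Mcm6 the motif matched on both strands with overlap, which reads as a longer run of capitals.
Mcm5, chr8:75109309-75109508, plus strand: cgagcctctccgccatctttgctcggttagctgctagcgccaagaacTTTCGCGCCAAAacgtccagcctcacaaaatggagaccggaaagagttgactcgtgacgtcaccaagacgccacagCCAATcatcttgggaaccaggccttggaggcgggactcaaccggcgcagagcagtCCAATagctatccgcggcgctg
Mcm6, chr1:128359706-128359905, minus strand: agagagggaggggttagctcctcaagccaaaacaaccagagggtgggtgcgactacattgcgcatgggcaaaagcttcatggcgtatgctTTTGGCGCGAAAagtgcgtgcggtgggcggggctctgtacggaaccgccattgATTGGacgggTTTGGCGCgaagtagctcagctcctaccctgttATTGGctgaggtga
Mcm7, chr5:138171884-138172083, minus strand: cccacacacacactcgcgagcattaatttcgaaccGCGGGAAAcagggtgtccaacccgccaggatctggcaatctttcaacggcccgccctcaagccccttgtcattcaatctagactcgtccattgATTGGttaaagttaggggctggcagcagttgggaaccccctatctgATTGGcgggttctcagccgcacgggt
Cdc6, chr11:98907951-98908150, plus strand: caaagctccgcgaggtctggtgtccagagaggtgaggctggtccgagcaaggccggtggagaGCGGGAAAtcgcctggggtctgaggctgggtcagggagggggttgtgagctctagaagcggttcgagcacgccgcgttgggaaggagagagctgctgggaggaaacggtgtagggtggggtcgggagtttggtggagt

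Across the series, median intensity per array lay between 76.3 and 82.9, and 1 Zeb2 KO array stood apart. Correlations between arrays of a genotype were 0.9938 to 0.9966 in WT and 0.9856 to 0.9958 in Zeb2 KO, and limma's array weights, which fall for arrays far from their group, ran from 0.67 to 1.62 except for 0.19 in Zeb2 KO replicate 3. Both further targets read low where the labels name their loss (6.20 and 7.09 for Nfil3 in Nfil3 Zeb2 DKO, 5.01 and 4.98 for Id2 in Zeb2 Id2 DKO, in log2 intensity). Zeb2 read 5.40 to 6.27 in the arrays labelled Zeb2 KO and 5.93 to 6.30 in WT, and 6.24 to 6.82 in the double mutants. Its probe set therefore does not show the deletion, and the sources used here do not say where it lies relative to the deleted part. All 11 cDC1 markers were measured, and the mean of that list stayed within -0.11 to 0.10 of the WT mean on every array. Single markers moved more, and in both directions. Cadm1 read 11.26, 11.21 and 11.25 in WT and 10.45 and 10.28 in Zeb2 Id2 DKO. Zbtb46 read 8.19, 6.42 and 7.79 in WT and 8.54 and 8.52 in Zeb2 Id2 DKO. In that comparison limma called 1 of the 11 lower (adjusted p = 0.00225), with 1.43% of all genes called.

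Mitotic genes disagreed widely between arrays of the same genotype. Mki67 read 9.97, 10.39 and 10.19 in WT, 9.99, 9.97 and 10.50 in Zeb2 KO, 10.17 and 10.26 in Nfil3 Zeb2 DKO and 10.17 and 10.13 in Zeb2 Id2 DKO. WT replicate 1 was the lowest WT array and Zeb2 KO replicate 3 the highest Zeb2 KO array, and all 4 genotypes overlapped. Plk1, a kinase of mitotic entry and spindle assembly, read 7.65, 8.41 and 8.63 in WT, 7.97, 7.58 and 8.92 in Zeb2 KO, 8.40 and 8.53 in Nfil3 Zeb2 DKO, and 7.87 and 8.08 in Zeb2 Id2 DKO. Its WT range of 0.98 was the widest of any mitotic gene in WT. Nusap1, which binds spindle microtubules, had the widest range in Zeb2 KO, with 7.94, 7.60 and 9.17, a range of 1.56. Its WT arrays read 7.75, 8.36 and 8.43.

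The same 2 arrays stood at the edge for the whole class. WT replicate 1 was the lowest of the WT arrays in 23 of 23 mitotic genes, against 37.7% of all genes, and Zeb2 KO replicate 3 was the highest Zeb2 KO array in 23 of 23, against 49.4% of all genes. Among S phase genes the counts were 15 of 18 and 8 of 18. In the cell cycle genes outside the list, WT replicate 1 was lowest in 66 of 68 mitotic and 42 of 50 S phase genes, and Zeb2 KO replicate 3 was highest in 58 of 68 and 25 of 50. Genes of 1 process share their cells, so these counts are not independent observations.

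**Figure D1:**
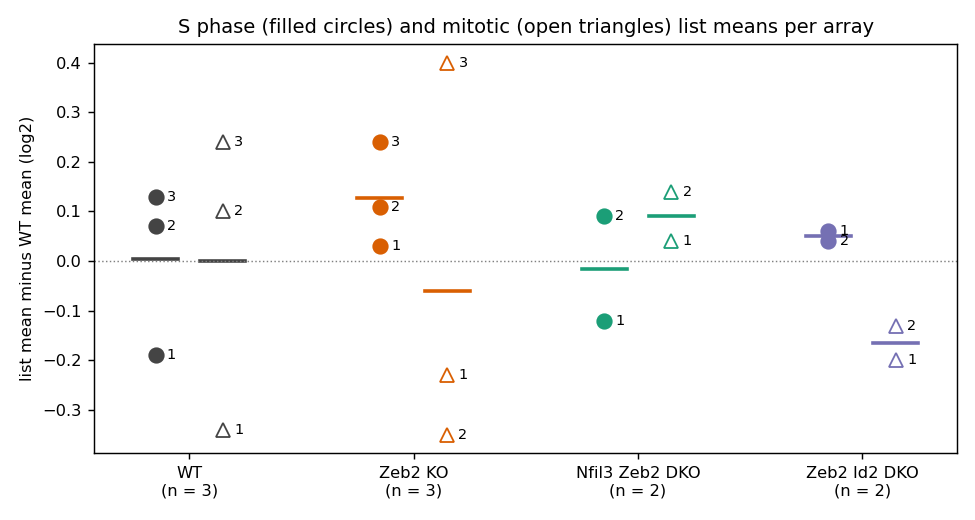
Mean log2 intensity of the 18 S phase genes (filled circles) and 23 mitotic genes (open triangles) on each array, minus the WT mean of that list; digits are replicate numbers and bars are genotype means. Mitotic means run from -0.34 to 0.24 in WT and from -0.35 to 0.40 in Zeb2 KO, while the mitotic means of each double mutant pair lie within 0.10 of each other.

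Averaged over the 23 mitotic genes and set against the WT mean, the WT arrays stood at -0.34, 0.10 and 0.24 and the Zeb2 KO arrays at -0.23, -0.35 and 0.40. Nfil3 Zeb2 DKO arrays stood at 0.04 and 0.14, and Zeb2 Id2 DKO arrays at -0.20 and -0.13. Both double mutants thus lay inside the WT range, with Zeb2 Id2 DKO below Nfil3 Zeb2 DKO on both arrays. The S phase mean moved less: -0.19, 0.07 and 0.13 in WT, 0.03, 0.11 and 0.24 in Zeb2 KO, -0.12 and 0.09 in Nfil3 Zeb2 DKO, and 0.06 and 0.04 in Zeb2 Id2 DKO.

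Gene by gene, the median range between WT arrays was 0.56 for mitotic genes and 0.37 for S phase genes, against 0.17 for all genes. In Zeb2 KO the medians were 0.68, 0.32 and 0.26. The pairs were closer, with 0.13, 0.21 and 0.09 in Nfil3 Zeb2 DKO and 0.10, 0.05 and 0.09 in Zeb2 Id2 DKO, although a range over 2 arrays is smaller than one over 3 by construction. In Nfil3 Zeb2 DKO the S phase genes varied more than the mitotic ones: replicate 1 was the lower array in 18 of 18 S phase and 18 of 23 mitotic genes, against 53.7% of all genes. The median SD within genotypes, pooled over the 4 groups, was 0.18 for S phase genes, 0.30 for mitotic genes and 0.12 for all genes. Of the 23 mitotic genes, 20 lay above the 90th percentile of this SD over all genes, as did 5 of the 18 S phase genes. The median SD of the 4 genotype means was 0.13 for mitotic, 0.09 for S phase and 0.08 for all genes; means of 2 or 3 arrays vary less than single arrays by construction.

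**Figure D2:**
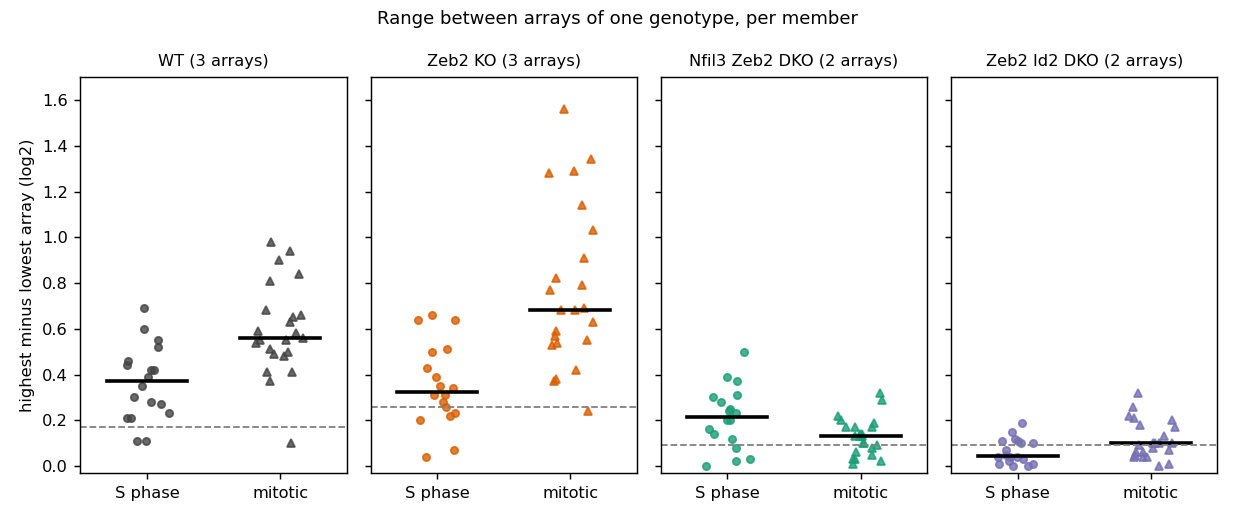
Highest minus lowest array (log2) of each S phase gene (circles) and mitotic gene (triangles) within each genotype; black bars are medians and the dashed line is the median over all genes. Mitotic medians of 0.56 in WT and 0.68 in Zeb2 KO lie above the all-gene medians of 0.17 and 0.26.

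Widest in range among S phase genes were Mcm7 in WT (0.69), Ccne1 in Zeb2 KO (0.66), Mcm3 in Nfil3 Zeb2 DKO (0.50) and Gins1 in Zeb2 Id2 DKO (0.19). Among mitotic genes of the double mutants, Kif11, a spindle motor, and Bub1, a checkpoint kinase, had the widest ranges, each 0.32, in Nfil3 Zeb2 DKO and Zeb2 Id2 DKO. Nuf2, a kinetochore gene, was the steadiest mitotic gene in WT and Zeb2 KO, with ranges of 0.10 and 0.24.

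**Figure D3:**
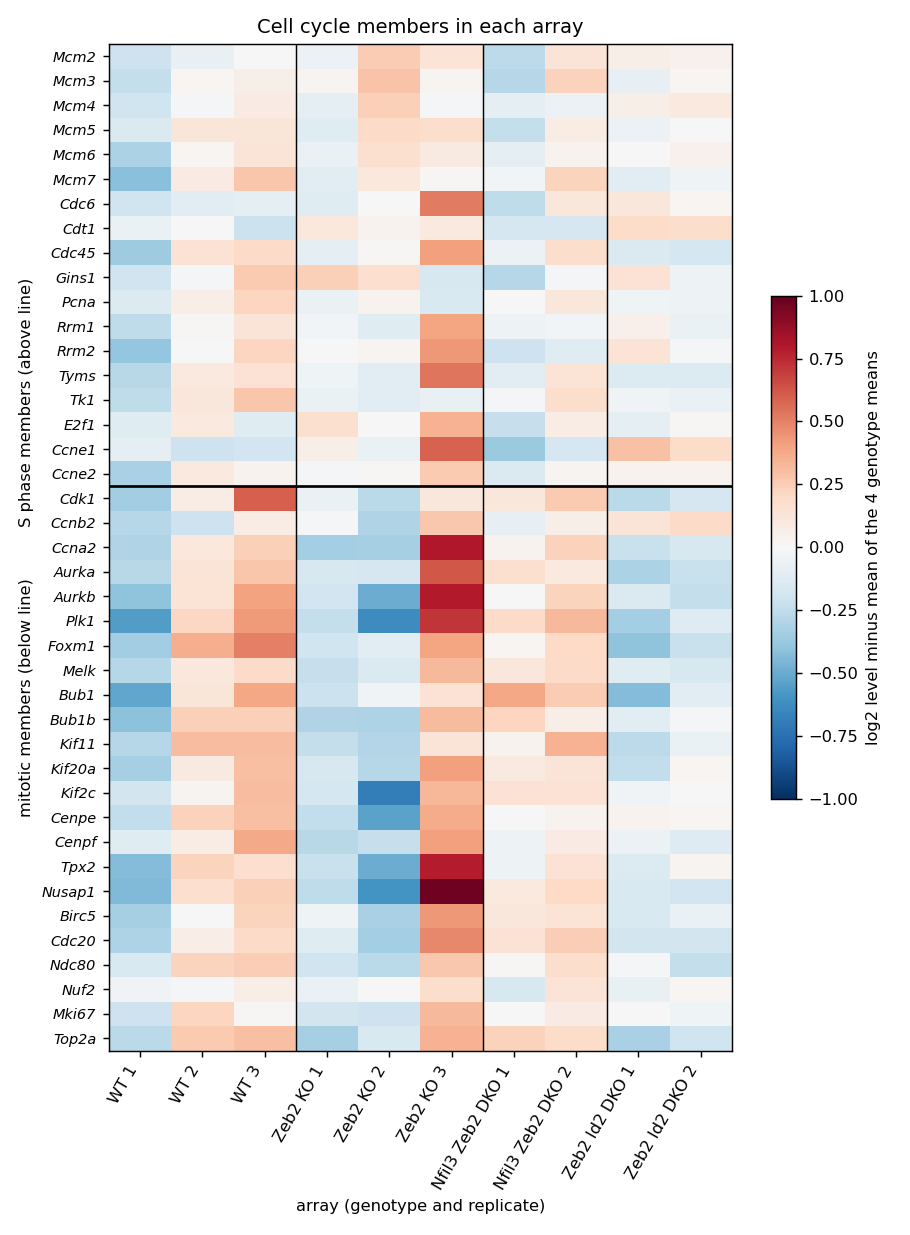
Log2 level of each gene on each array minus the mean of its 4 genotype means, in red where higher and in blue where lower; S phase genes lie above the horizontal line and mitotic genes below it. WT replicate 1 is lowest of the WT arrays and Zeb2 KO replicate 3 highest of the Zeb2 KO arrays in 23 of 23 mitotic genes.

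Marker lists of other cells also differed between arrays. The 8 measured B cell and plasma cell markers, averaged and set against the WT mean, stood at 0.81, -0.35 and -0.46 in WT and at -0.41, 0.16 and -1.19 in Zeb2 KO, the reverse of the order of the mitotic mean in both genotypes. The order held for the list mean and not for every member. Cd79a, part of the B cell receptor, read 8.71, 6.36 and 6.61 in WT and 6.79, 7.87 and 6.36 in Zeb2 KO. Ms4a1 was highest in WT replicate 2 (8.09, 9.79 and 7.85 in WT). Jchain was highest in Zeb2 KO replicate 1 (10.09, 9.65 and 5.67 in Zeb2 KO), and Xbp1 was nearly flat in WT (10.48, 10.43 and 10.53). In the double mutants the B cell list lay between -0.79 and -0.54. The mean of the 8 red pulp macrophage genes ran broadly with the mitotic mean, at -0.18, 0.06 and 0.11 in WT, -0.46, -0.37 and 0.17 in Zeb2 KO, -0.02 and -0.03 in Nfil3 Zeb2 DKO and -0.35 and -0.21 in Zeb2 Id2 DKO. Zeb2 KO replicate 3 was the highest Zeb2 KO array for both means, and WT replicate 1 the lowest WT array. The lowest Zeb2 KO array differed, replicate 1 for macrophage and replicate 2 for mitotic genes. Single macrophage genes did not all rise in Zeb2 KO replicate 3. Spic (5.93, 5.70 and 7.35) and Hmox1 (7.37, 7.22 and 8.74) did, while Adgre1 (5.65, 5.59 and 5.59) and C1qa (5.89, 6.10 and 6.01) did not. The list of 11 neutrophil and precursor genes stood at 2.62, 1.65 and 1.81 in Zeb2 KO, 0.44 and 1.17 in Nfil3 Zeb2 DKO and 1.58 and 2.76 in Zeb2 Id2 DKO. The 9 measured erythroid genes stood at 0.32, 0.45 and 0.27 in Zeb2 KO. In the double mutants they stood at -0.95 and 0.01 (Nfil3 Zeb2 DKO) and 0.97 and 0.74 (Zeb2 Id2 DKO). Set against Nfil3 Zeb2 DKO, 9 of 9 rose in Zeb2 Id2 DKO without overlap, as did 22.9% of all genes. Of these 9, limma called 3, where 0.792% of all genes were called in either direction. Nfil3 Zeb2 DKO replicate 1, at -0.95, is the array that was lower in 18 of 18 S phase genes. The order was the reverse in WT, where the erythroid mean stood at 0.22, 0.05 and -0.27 and the S phase mean at -0.19, 0.07 and 0.13. In Zeb2 Id2 DKO the 6 measured pDC genes stood at 0.67 and 0.52 and the 6 measured monocyte genes at 0.46 and 0.36, above the other genotypes. In each of these lists 5 genes had a positive fold change against WT in Zeb2 Id2 DKO and 1 a negative one. The 8 measured T cell genes stood at -0.46 and -0.48 there and at 0.13 and 0.02 in Nfil3 Zeb2 DKO. The 7 NK cell genes stood at -0.23 and -0.28 against 0.20 and 0.28. Both means were thus lower in Zeb2 Id2 DKO, as was the mitotic mean. In each list 1 gene went the other way. Cd5 read 8.47 and 8.84 in Zeb2 Id2 DKO and 8.62 and 8.61 in Nfil3 Zeb2 DKO. Klrd1 read 7.26 and 7.23 against 6.96 and 6.61. In Zeb2 KO the 2 means stood at -0.40, -0.18 and -0.27 (T cell) and -0.22, -0.14 and -0.17 (NK cell), not highest in replicate 3. No array value is 0 in log2 intensity, as the lowest linear intensity of the series was 5.053. The part of these cells in the cell cycle values was not tested.

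S phase against mitotic signal shifted within WT and Zeb2 KO about as much as between genotypes. The S phase mean minus the mitotic mean was 0.77, 0.58 and 0.50 in WT, 0.87, 1.07 and 0.46 in Zeb2 KO, 0.46 and 0.58 in Nfil3 Zeb2 DKO and 0.88 and 0.79 in Zeb2 Id2 DKO. Its absolute size depends on the probe sets and has no meaning of its own, so only differences between arrays are read. Both Zeb2 Id2 DKO arrays lay above both Nfil3 Zeb2 DKO arrays and above all WT arrays, and inside the range of Zeb2 KO. Group means were 0.62 ± 0.14 (SD, n = 3) in WT, 0.80 ± 0.31 (SD, n = 3) in Zeb2 KO, 0.52 ± 0.08 (SD, n = 2) in Nfil3 Zeb2 DKO and 0.84 ± 0.06 (SD, n = 2) in Zeb2 Id2 DKO. No test was made, since the genes were chosen with results known.

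Between Zeb2 KO and WT, no cell cycle gene of the list passed limma's test (Benjamini-Hochberg adjusted p under 0.05), with a smallest adjusted p of 0.613. Of all genes, 4 were called (0.0201%), so the comparison called almost nothing. S phase genes leaned higher, with a median log2 fold change of 0.13 and 16 of 18 above 0, and mitotic genes stood at -0.03 with 8 of 23 above 0, against -0.00 for all genes. At an unadjusted p under 0.05 stood 2 S phase genes and 0 mitotic genes, 2 of 41 against 7.39% of all genes.

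Both of these act at the entry to S phase. Ccne1, cyclin E1, the partner of Cdk2 at the G1/S transition, read 7.99, 7.88 and 7.90 in WT and 8.15, 8.02 and 8.68 in Zeb2 KO. Every Zeb2 KO array exceeded every WT array, by a log2 fold change of 0.36 (95% confidence interval 0.03 to 0.68, limma adjusted p = 0.613). Cdt1, which loads the helicase at origins, read 7.68, 7.74 and 7.53 in WT and 7.85, 7.78 and 7.84 in Zeb2 KO, also without overlap, with 0.18 (0.01 to 0.34, limma adjusted p = 0.646). These 2 were the only list members with no overlap, where 10.4% of all genes had none.

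Helicase genes were all slightly above WT in Zeb2 KO: 10 of 10 had a positive fold change, from 0.02 to 0.27, and 1 had an unadjusted p under 0.05. Mcm2, a helicase subunit, read 9.18, 9.31 and 9.39 in WT and 9.33, 9.64 and 9.52 in Zeb2 KO (0.20, 95% interval -0.05 to 0.46). Mcm5 read 9.35, 9.62 and 9.62 against 9.38, 9.69 and 9.67, which overlap. Cdc6 read 7.04, 7.14 and 7.15 in WT and 7.12, 7.25 and 7.76 in Zeb2 KO, where replicate 3 stood above the other two. Transcription factor E2f1, which drives S phase genes, read 7.76, 7.98 and 7.76 against 8.04, 7.88 and 8.23 (0.22, -0.04 to 0.47).

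Nucleotide supply and clamp genes split. Pcna, the sliding clamp, read 11.73, 11.93 and 12.08 in WT and 11.80, 11.90 and 11.71 in Zeb2 KO (-0.10, 95% interval -0.32 to 0.11). Tk1, thymidine kinase, had a fold change of -0.13, while Rrm2, a ribonucleotide reductase subunit, had 0.21 and Tyms, thymidylate synthase, 0.14. Rrm2 read 8.16, 8.55 and 8.76 in WT and 8.55, 8.57 and 8.98 in Zeb2 KO. A second probe set of Pcna ran parallel to the one used, and that of Tk1 was flatter, at 7.88 to 8.17 over all arrays.

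In the mitotic class, intervals against WT were wide. Top2a, which untangles replicated DNA, read 7.71, 8.24 and 8.28 in WT and 7.64, 7.82 and 8.32 in Zeb2 KO (-0.15, 95% interval -0.55 to 0.26). Its second probe set stayed at 3.13 to 3.8 on all arrays. Mki67 had -0.03 (-0.35 to 0.29) and Plk1 -0.07 (-0.77 to 0.63), so changes of either sign fit within these intervals. Kif11 had the lowest value of the class, -0.25 (-0.63 to 0.13).

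These Zeb2 KO values rest on the 2 arrays at the edge. Without Zeb2 KO replicate 3, the mitotic median against WT was -0.33 with 23 of 23 genes below 0 and none called (limma, smallest adjusted p = 0.197, 8 at an unadjusted p under 0.05), and 0.828% of all genes were called. Without WT replicate 1 it was -0.24, and it turned positive without WT replicate 2 (0.03), WT replicate 3 (0.07), or Zeb2 KO replicate 1 or 2 (0.05 each). The S phase median fell to 0.01, with 11 of 18 genes above 0, without WT replicate 1. It was 0.07, with 13 of 18 above 0, without Zeb2 KO replicate 3. When both WT replicate 1 and Zeb2 KO replicate 3 were left out, 12 mitotic genes were called lower (median -0.50) and 0 S phase genes (median -0.05), with 2.51% of all genes called. That pair was picked after its mitotic values were seen, as the arrays farthest out in the directions that hide such a difference, so these calls describe the remaining 8 arrays and do not count as evidence of a genotype effect.

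In Nfil3 Zeb2 DKO against WT, every list gene overlapped between the groups. No list gene passed limma's test (adjusted p of 1.0 throughout), 0 had an unadjusted p under 0.05 and 0 were free of overlap, where 1 gene of all was called (0.00502%), 4.16% had an unadjusted p under 0.05 and 23.8% had no overlap. Medians were 0.01 for S phase and 0.09 for mitotic genes, with 18 of 23 mitotic genes above 0. Both signs turned without WT replicate 1, to -0.10 with 17 of 18 below 0 and to -0.08 with 18 of 23 below 0, and the S phase median was -0.08 without Nfil3 Zeb2 DKO replicate 2. Bub1 had the largest value, 0.32 (95% interval -0.17 to 0.82), with 6.0, 6.64 and 6.90 in WT and 6.90 and 6.77 in Nfil3 Zeb2 DKO. Cdc20 read 8.08, 8.46 and 8.58 against 8.54 and 8.64 (0.21, -0.26 to 0.68).

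**Figure D4:**
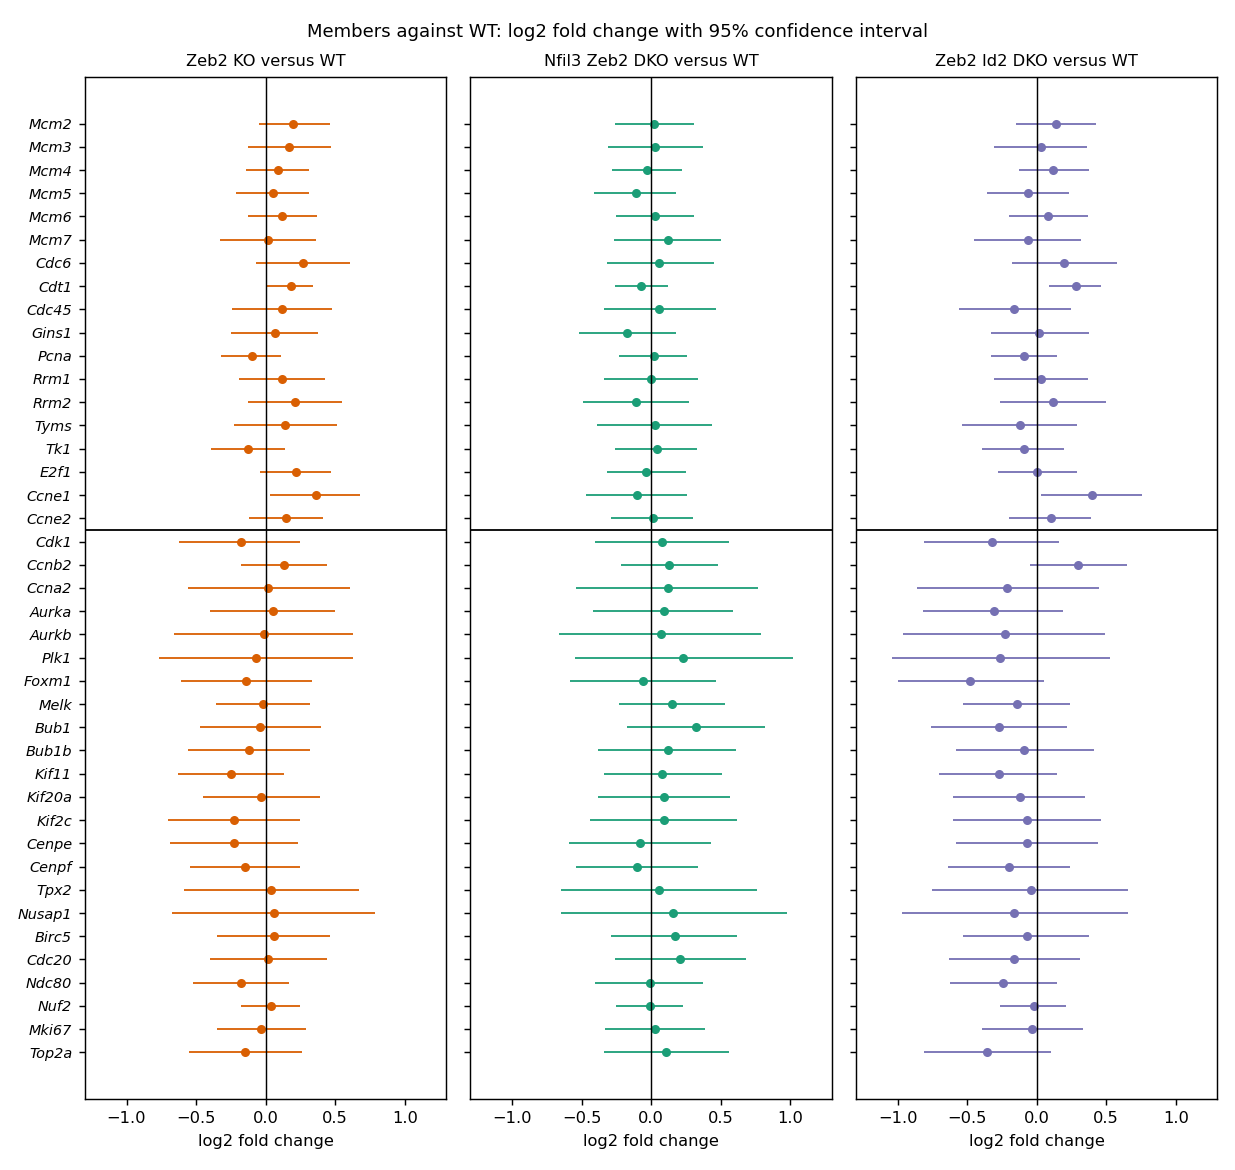
Log2 fold change against WT (points) with 95% confidence interval (lines) of each list gene in the 3 mutant genotypes; S phase genes lie above the horizontal line. No gene passes the test at an adjusted p of 0.05, and intervals are wider for mitotic genes, such as -0.77 to 0.63 for Plk1 in Zeb2 KO.

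Zeb2 Id2 DKO had the lowest mitotic median of the 3 mutants against WT, and again no list gene passed limma's test (smallest adjusted p = 0.188), where 286 of all genes were called (1.43%). The mitotic median was -0.16, with 22 of 23 genes below 0, and the S phase median 0.03, with 12 of 18 above 0, against -0.01 for all genes. At an unadjusted p under 0.05 stood 2 S phase genes, Cdt1 and Ccne1, and 0 mitotic genes (10.2% of all genes). Foxm1, the transcription factor of the mitotic program, had the lowest value: it read 7.82, 8.53 and 8.67 in WT and 7.77 and 7.95 in Zeb2 Id2 DKO (-0.48, 95% interval -1.0 to 0.05, adjusted p = 0.563). Top2a read 7.65 and 7.78 in Zeb2 Id2 DKO (-0.36, -0.81 to 0.10). Cdk1 read 8.17, 8.59 and 9.12 in WT and 8.25 and 8.35 in Zeb2 Id2 DKO (-0.32, -0.81 to 0.16). In each of these, WT replicate 1 lay near the mutant arrays and the other WT arrays above them.

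Ccnb2, cyclin B2, was the 1 mitotic gene above 0. It read 9.0, 9.08 and 9.36 in WT and 9.42 and 9.48 in Zeb2 Id2 DKO, with no overlap (0.30, 95% interval -0.05 to 0.65, limma adjusted p = 0.6). Cdt1 read 7.93 and 7.92 in Zeb2 Id2 DKO, above all WT arrays (0.28, 0.09 to 0.46, adjusted p = 0.188), and Ccne1 read 8.38 and 8.27 (0.40, 0.03 to 0.76, adjusted p = 0.422). In all, 4 S phase genes and 1 mitotic gene were higher with no overlap, against 15.2% of all genes.

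Without WT replicate 1 the mitotic median against WT was -0.32 and the S phase median turned to -0.06, and without WT replicate 3 the mitotic median was -0.05. Without Zeb2 KO replicate 3, which is in neither group and enters through the shared variance, Ccne1 was called (adjusted p = 0.0316), with 3.81% of all genes. Leaving out that array and WT replicate 1 gave 8 calls, 7 mitotic genes and Ccne1, with 5.54% of all genes called, under the same limit on that pair.

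Between the double mutants, most mitotic genes read lower in Zeb2 Id2 DKO, and none passed the test. Every comparison here shares its arrays with those against WT. The mitotic median of Zeb2 Id2 DKO against Nfil3 Zeb2 DKO was -0.29, with 21 of 23 genes below 0, and the S phase median was 0.05, with 12 of 18 above 0, against -0.03 for all genes. Arrays did not overlap for 18 mitotic genes that were lower and 1 that was higher, with 29.5% and 22.9% of all genes. No list gene was called by limma (smallest adjusted p = 0.129), where 0.792% of all genes were, and 3 stood at an unadjusted p under 0.05, against 11.5% of all genes. With any single array left out the mitotic median was -0.33 to -0.23. Its sign could not turn, since 18 of 23 genes were lower without overlap and arrays of other genotypes do not enter the fold change. The S phase median turned to -0.07 without Nfil3 Zeb2 DKO replicate 1. Without Zeb2 KO replicate 3, Ccne1 was called here too (limma adjusted p = 0.0199), with 3.53% of all genes. Without that array and WT replicate 1 there were 5 calls, with 4.8% of all genes. That pair was picked after its mitotic values were seen, so these 5 calls do not count as evidence of a genotype effect.

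Bub1 read 6.08 and 6.40 in Zeb2 Id2 DKO, below 6.90 and 6.77 in Nfil3 Zeb2 DKO (-0.59, 95% interval -1.13 to -0.06, limma adjusted p = 0.378). Plk1 had -0.49 (-1.35 to 0.37), Top2a -0.47 (-0.96 to 0.03) and Cdc20 -0.38 (-0.89 to 0.14), each without overlap. Mki67 had -0.06 (-0.46 to 0.33) and overlapped. Cdt1 and Ccne1 ran the other way. Cdt1 read 7.58 and 7.58 in Nfil3 Zeb2 DKO, 0.35 lower than in Zeb2 Id2 DKO (0.14 to 0.55, limma adjusted p = 0.129). Ccne1 read 7.72 and 7.92 there, 0.50 lower (0.10 to 0.90, limma adjusted p = 0.301).

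Against Zeb2 KO, the double mutants again had no called list gene (limma, smallest adjusted p of 0.448 for Nfil3 Zeb2 DKO and 0.819 for Zeb2 Id2 DKO), where 0.00502% and 0.497% of all genes were called. For Nfil3 Zeb2 DKO the S phase median was -0.14, with 15 of 18 below 0, and the mitotic median 0.12, with 22 of 23 above 0. Cdt1 (-0.25) and Ccne1 (-0.46) were the 2 genes at an unadjusted p under 0.05, against 8.5% of all genes. For Zeb2 Id2 DKO the medians were -0.07 and -0.12, with 0 genes at an unadjusted p under 0.05, against 7.35% of all. These medians rest on single arrays. For Nfil3 Zeb2 DKO the mitotic median was -0.01, with 11 of 23 above 0, without Zeb2 KO replicate 2, and 0.40 without Zeb2 KO replicate 3, and the S phase median was -0.02 without Nfil3 Zeb2 DKO replicate 1. For Zeb2 Id2 DKO the mitotic median turned to 0.12 without Zeb2 KO replicate 3. Leaving out WT replicate 1 as well gave 5 called mitotic genes for Nfil3 Zeb2 DKO, with 1.33% of all genes called, and 0 for Zeb2 Id2 DKO. Those arrays were picked after their mitotic values were seen, so these calls do not count as evidence of a genotype effect.

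Cell cycle genes outside the list gave the only calls. Of 50 other S phase genes, 1 was called in Zeb2 Id2 DKO against WT, and of 68 other mitotic genes, 1 was called there, both near the 1.43% of all genes. Against Zeb2 KO, 1 of the 68 was called in Zeb2 Id2 DKO, where 0.497% of all genes were. None of 40 brakes and G1 genes (kinase inhibitors, p53 targets, D cyclins, G1 kinases and pocket proteins) was called by limma in any comparison, with 1 to 6 at an unadjusted p under 0.05, against 4.16% to 11.5% of all genes. Medians of the other mitotic genes were -0.02, 0.07 and -0.10 against WT in Zeb2 KO and in the double mutants with Nfil3 and with Id2.

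Pttg1, securin, which holds separase inactive until anaphase, read 9.31, 9.31 and 9.45 in WT, 9.25, 9.05 and 8.97 in Zeb2 KO, 9.46 and 9.43 in Nfil3 Zeb2 DKO, and 9.80 and 9.98 in Zeb2 Id2 DKO. It rose in Zeb2 Id2 DKO by 0.54 against WT (95% interval 0.31 to 0.77, limma adjusted p = 0.0311) and by 0.80 against Zeb2 KO (0.58 to 1.03, adjusted p = 0.00779). Both Zeb2 Id2 DKO arrays were above all others. In Zeb2 KO it ran against the mitotic list, since replicate 3 was its lowest array. The call against WT was lost when any single array outside the Zeb2 KO group was left out (largest adjusted p = 0.329), and the one against Zeb2 KO without Zeb2 Id2 DKO replicate 2 (0.123).

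Timeless, a component of the replication fork protection complex, read 7.08, 7.33 and 7.20 in WT, 7.40, 7.41 and 7.41 in Zeb2 KO, 7.14 and 7.33 in Nfil3 Zeb2 DKO, and 7.73 and 7.66 in Zeb2 Id2 DKO. It rose in Zeb2 Id2 DKO by 0.49 against WT (95% interval 0.28 to 0.70, limma adjusted p = 0.0328). Its Zeb2 KO arrays lay above all WT arrays, by 0.20 (0.01 to 0.39, adjusted p = 0.636). The call was lost without WT replicate 1 (0.079) or 3 (0.115) and without either Zeb2 Id2 DKO array (0.3 and 0.205).

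**Figure D5:**
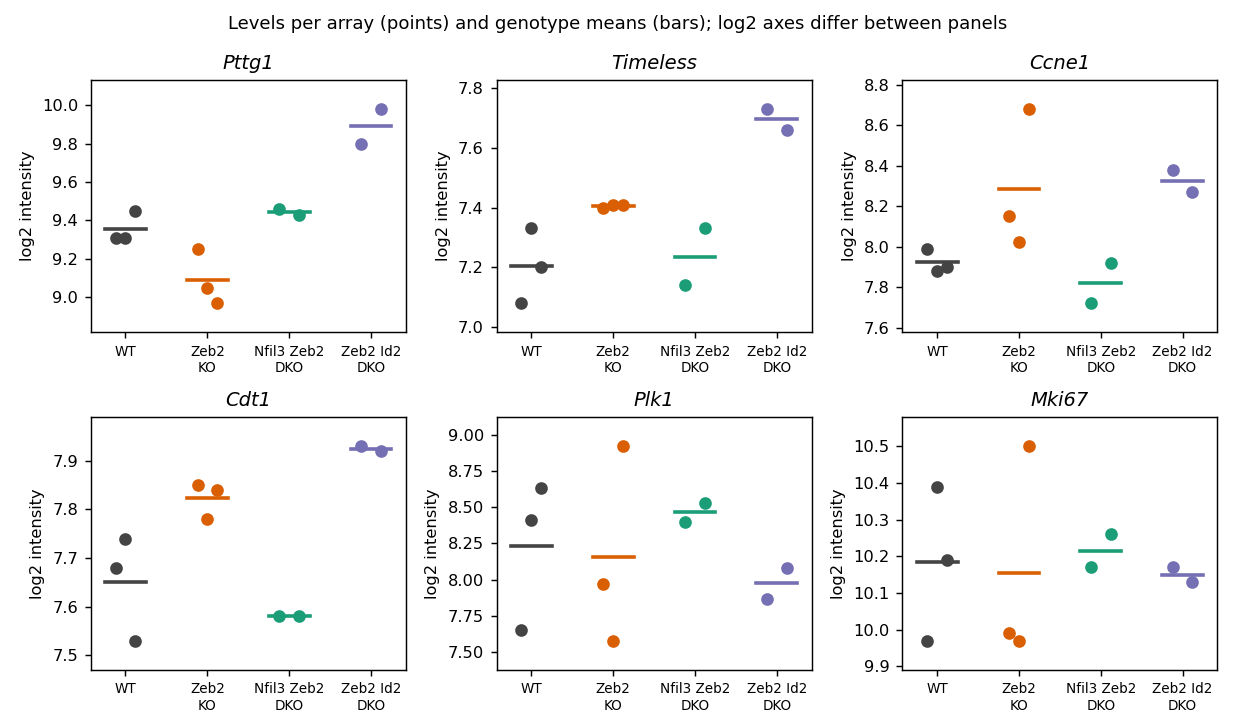
Log2 intensity per array (points) and genotype mean (bars) of Pttg1, Timeless, Ccne1, Cdt1, Plk1 and Mki67; the axes differ between panels and do not start at 0. Pttg1 and Timeless are highest on both Zeb2 Id2 DKO arrays, while Plk1 and Mki67 spread most within WT and Zeb2 KO.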

How the data were processed

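cDC1s were sorted from digested spleens and their amplified, biotin-labelled cDNA was measured on 10 arrays, per the labels. Per the submitters' processing notes, the authors used RMA in Affymetrix Expression Console. The authors deposited linear intensities, of which log2 was taken. Of 28853 probe sets, 21789 named 1 gene, and the set with the highest mean per gene gave 19938 genes; none was filtered by level. The 10 arrays were fitted jointly, with genotype as the only factor, in limma 3.58.1 under R 4.3.3 (6 residual and 4.47 prior degrees of freedom), with Benjamini-Hochberg adjustment over all genes within each of 6 comparisons. The number of arrays limits precision. The listed genes and all gene lists were chosen with earlier results of these data known. Genes named were landmark genes, those with the smallest p per class, comparison and direction, those with the widest range, and called genes of the other lists. Alternatives changed the normalization, probe set rule, offset, filter, weights, variance and arrays used. The fit was tested on simulated data.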

Additional observations from a re-analysis of the deposited data

How the results depend on the processing

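With all 10 arrays, 0 list genes were called in any of the 6 comparisons. Array weights gave 1 call in Zeb2 Id2 DKO against WT (Ccne1, adjusted p = 0.0367) and 2 against Nfil3 Zeb2 DKO (Ccne1 and Cdt1), and fitting only the 2 groups compared gave 1 (Ccne1, 0.0415) and 6 (Aurka, Bub1, Ccne1, Cdc20, Plk1 and Top2a). Calls over all genes moved too. Across the alternatives that kept all arrays they numbered 183 to 1076 against WT (286 in the main fit). Against Nfil3 Zeb2 DKO they numbered 133 to 1139 (158 in the main fit). The cause was not tested. Quantile normalization moved the range between arrays of the S phase mean to 0.34 in Zeb2 KO and 0.04 in Zeb2 Id2 DKO, and median centring moved it to 0.10 in Zeb2 KO. The mean of all probe sets gave 0.91 for the S phase minus mitotic difference in Zeb2 Id2 DKO. Leaving out 1 array gave 0 to 1 calls against WT and against Nfil3 Zeb2 DKO in Zeb2 Id2 DKO and 0 elsewhere; ranges of the list mean were then 0.06 to 0.32 (S phase) and 0.14 to 0.59 (mitotic) in WT, and 0.08 to 0.22 and 0.12 to 0.74 in Zeb2 KO. Medians of Zeb2 KO against WT then ran from 0.01 to 0.20 (S phase) and from -0.33 to 0.07 (mitotic). With WT replicate 1 and Zeb2 KO replicate 3 both left out, a choice made after seeing the data, calls numbered 12 for Zeb2 KO against WT (medians -0.05 for S phase and -0.50 for mitotic genes), 8 for Zeb2 Id2 DKO against WT, 5 for Nfil3 Zeb2 DKO against Zeb2 KO and 5 between the double mutants; ranges of the list mean were 0.06 and 0.14 in WT and 0.08 and 0.12 in Zeb2 KO. Ccna2 (-0.51) and Nusap1 (-0.62) then turned sign in Zeb2 KO against WT, and Nusap1 reached 0.38 without Zeb2 KO replicate 2. Of the values that answer a comparison, 420 under an alternative setting stayed within a set limit and 24 moved beyond it. For a list median the limit was the larger SD between arrays of that list's mean in the 2 groups compared. Medians whose sign turned could therefore stay within it. In Zeb2 KO that SD was 0.40 for mitotic genes, so the move from -0.03 to -0.33 against WT stayed within the limit. Of values for single genes, 44 gained a call and 16 lost one.

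The labels do not say whether replicate numbers pair the samples. Deviations of same-numbered arrays from their genotype means correlated from -0.31 to 0.16. With 2 or 3 arrays per genotype these deviations are tied to each other, so the correlations cannot decide whether the number pairs samples. With the number as a replicate block, 0 list genes were called, the mitotic medians were 0.28 for Nfil3 Zeb2 DKO and 0.03 for Zeb2 Id2 DKO against WT, and the calls of Pttg1 (adjusted p = 0.1) and Timeless (0.0734) against WT were lost. Median centring also ended the call of Pttg1 against WT (0.054), and fitting only the 2 groups that against Zeb2 KO (0.13). Quantile normalization turned the S phase median between the double mutants from 0.05 to -0.02, and array weights turned the mitotic median of Zeb2 Id2 DKO against Zeb2 KO from -0.12 to 0.08. Groups of 2 or 3 arrays limit all values: the median 95% interval reached 0.22 to 0.26 to either side.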
